A study of Mus musculus with 3 samples.

Results

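Glutamine enters metabolism through glutamate, and 6 enzymes that make or use these amino acids are described here in mouse dendritic cell cultures: Glul, Glud1, Got1, Got2, Oat and Gpt2. They were chosen by gene symbol, and all 6 were found among the 32285 genes of the count matrices. The cultures, driven by FLT3L, the growth factor of dendritic cell development, came from wild-type C57BL/6 mice, and there were 3 libraries with 1 library per group. How many mice or wells stood behind a library is not given in the sources used here. The control group was grown in 2 mM glutamine, the low-glutamine group in 50 µM glutamine, and the DON group in 2 mM glutamine with 1 µM DON. DON is a glutamine analogue that blocks enzymes which take the amide nitrogen of glutamine. With no second library in any group, nothing below could be tested between groups, and the 95% intervals (exact Poisson for levels, exact binomial for shares) cover counting error only, not the spread between cultures or mice.

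Glutamate is the hub of amino acid nitrogen. Glutamine synthetase (Glul) joins ammonia to glutamate to make glutamine, whereas glutamate dehydrogenase (Glud1) and the transaminases carry glutamate to alpha-ketoglutarate, which feeds the citric acid cycle. Got1 in the cytosol and Got2 in mitochondria exchange amino groups between glutamate and aspartate and are part of the malate-aspartate shuttle, which moves reducing equivalents into mitochondria. Gpt2 is the mitochondrial alanine transaminase, and Oat links ornithine to glutamate and proline synthesis.

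In GRCm38 (GENCODE vM21), Glul lies on chromosome 1 from 153899944 to 153909723 on the plus strand, where it overlaps Teddm2 on the other strand. Glud1 lies on chromosome 14 from 34310727 to 34345265 (plus), Got1 on chromosome 19 from 43499752 to 43524605 (minus), and Got2 on chromosome 8 from 95864134 to 95888547 (minus). Gpt2 is on chromosome 8 as well, from 85492576 to 85527560 (plus). Oat lies on chromosome 7 from 132557478 to 132576398 (minus) within an overlap with Fgfr2 on the same strand, so reads in the shared part could have been given to either gene. The processed pseudogenes Got2-ps1 and Glud-ps are annotated but are not among the features counted, and reads that fit both copies may be missing from the parent gene.

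The promoters of Gpt2, Got1 and Asns are shown because Gpt2 was the member past 1.5-fold at 50 µM in the pDC and progenitor gates described below, Asns (asparagine synthetase, which uses glutamine) differed in the same comparison, and Got1 is the member with a match to the motif searched. The motif is TGATGNAA, the core letters of the element bound by ATF4 with its partners, a transcription factor of the response to amino acid shortage. Each line gives the 250 bases before the RefSeq gene start (GRCm38.p6), 5′ to 3′ on the gene's strand, with a match on either strand in capitals. They lie at chr8:85492326-85492575 (plus), chr19:43524606-43524855 (minus) and chr6:7693210-7693459 (minus).
Gpt2: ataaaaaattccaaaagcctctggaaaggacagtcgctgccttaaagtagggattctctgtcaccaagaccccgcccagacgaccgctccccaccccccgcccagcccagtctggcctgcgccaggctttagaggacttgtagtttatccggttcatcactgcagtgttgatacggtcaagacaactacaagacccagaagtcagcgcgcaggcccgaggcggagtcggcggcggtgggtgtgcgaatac
Got1: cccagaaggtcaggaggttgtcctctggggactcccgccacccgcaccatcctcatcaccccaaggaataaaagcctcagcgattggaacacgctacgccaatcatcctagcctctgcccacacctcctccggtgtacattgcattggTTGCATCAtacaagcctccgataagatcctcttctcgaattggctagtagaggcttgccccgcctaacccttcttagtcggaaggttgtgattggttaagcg
Asns: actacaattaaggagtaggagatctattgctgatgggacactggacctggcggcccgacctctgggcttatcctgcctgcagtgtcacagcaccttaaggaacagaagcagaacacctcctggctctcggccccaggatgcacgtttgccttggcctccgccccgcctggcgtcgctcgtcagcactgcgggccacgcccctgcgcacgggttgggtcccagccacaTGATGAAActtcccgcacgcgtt
Over windows of 300 bases (250 before the start and 50 after), 1304 of 32851 promoters, or 3.97%, hold this motif on either strand. All 6 members had a window, and among them Got1 had 1 match, TTGCATCA, which begins at -102 from the gene start and is the motif read on the other strand. Asns had TGATGAAA at -23. The letters were not found in the Gpt2 window, which says only that they are not in those bases.

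Cells were placed in a type when at least 3 of its 10 marker genes had a UMI (a counted RNA molecule) and at least 2 more than of any other type. This gave 1385 type 1 conventional dendritic cells (cDC1) in control, 246 at 50 µM and 624 with DON, and 1333, 1266 and 989 type 2 cells (cDC2). The gate of plasmacytoid cells (pDC) held 3053, 2908 and 3064 cells, and the progenitor gate 236, 835 and 242. Mature dendritic cells, monocytes and macrophages, neutrophils and B lineage cells were gated too, with at least 50 cells of each in every library, and 2398, 3069 and 2576 cells fell in no gate. The libraries held 87611658 to 92002827 UMIs in 8962 to 10497 barcodes, and any pair of libraries shared 20 to 31 barcodes. The doublets that were marked and removed came to 8.62%, 4.97% and 5.85% of the filtered cells in the order control, 50 µM and DON, which is kept below. Levels are UMIs of a gene scaled to the UMI total of the gate as CPM. In the B lineage gate 9, 8 and 9 of its 10 markers had a UMI, with Igll1 at 0 in all 3 libraries and Vpreb1 at 0 at 50 µM, and the other 7 gates had UMIs of all 10 of their own markers in each library. The 10 cDC1 markers summed to 1972, 1862 and 1446 CPM in the cDC1 gate against 86.1 to 109 CPM in the pDC gate.

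Glul, the enzyme that makes glutamine, stood apart by cell type. In monocytes and macrophages it was at 217 CPM in control (interval 181 to 258, 129 UMIs), 317 CPM at 50 µM (248 to 398, 73 UMIs) and 288 CPM with DON (253 to 327, 239 UMIs). In cDC1 it was at 12.9, 12.98 and 13.5 CPM, in cDC2 at 24.3, 24.1 and 23.1 CPM, and in pDC at 25.9, 22.6 and 25.7 CPM. The monocyte and macrophage gate was the highest of the 8 in all 3 libraries, with intervals clear of the next gate each time. Below it, most neighbours in the order overlapped; cDC1 was lower than cDC2 and pDC beyond counting error in every library. The gate held 0.793% of control UMIs but 7.46% of control Glul UMIs, and with DON 1.07% and 11.8%. After thinning each cell to 2000 UMIs, 36.6% of the gate's control cells had a Glul UMI (45 of 123, interval 28.1 to 45.7%) against 2.53% of control cDC1 (35 of 1383, 1.77 to 3.50%), at median depths of 2924.5 and 9514 UMIs before thinning. Without thinning these shares were 46.8% and 12.5%. Markers of cDC2 were present in the same gate, at 2394 to 2735 CPM in all, beside 5621 to 7400 CPM for its own 10 markers. In control the cDC1, pDC and neutrophil markers there summed to 719, 561 and 554 CPM. The cDC2 gate itself had Glul at 23.1 to 24.3 CPM. The part of other cell types in the Glul level of the monocyte and macrophage gate was not tested.

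**Figure D1:**
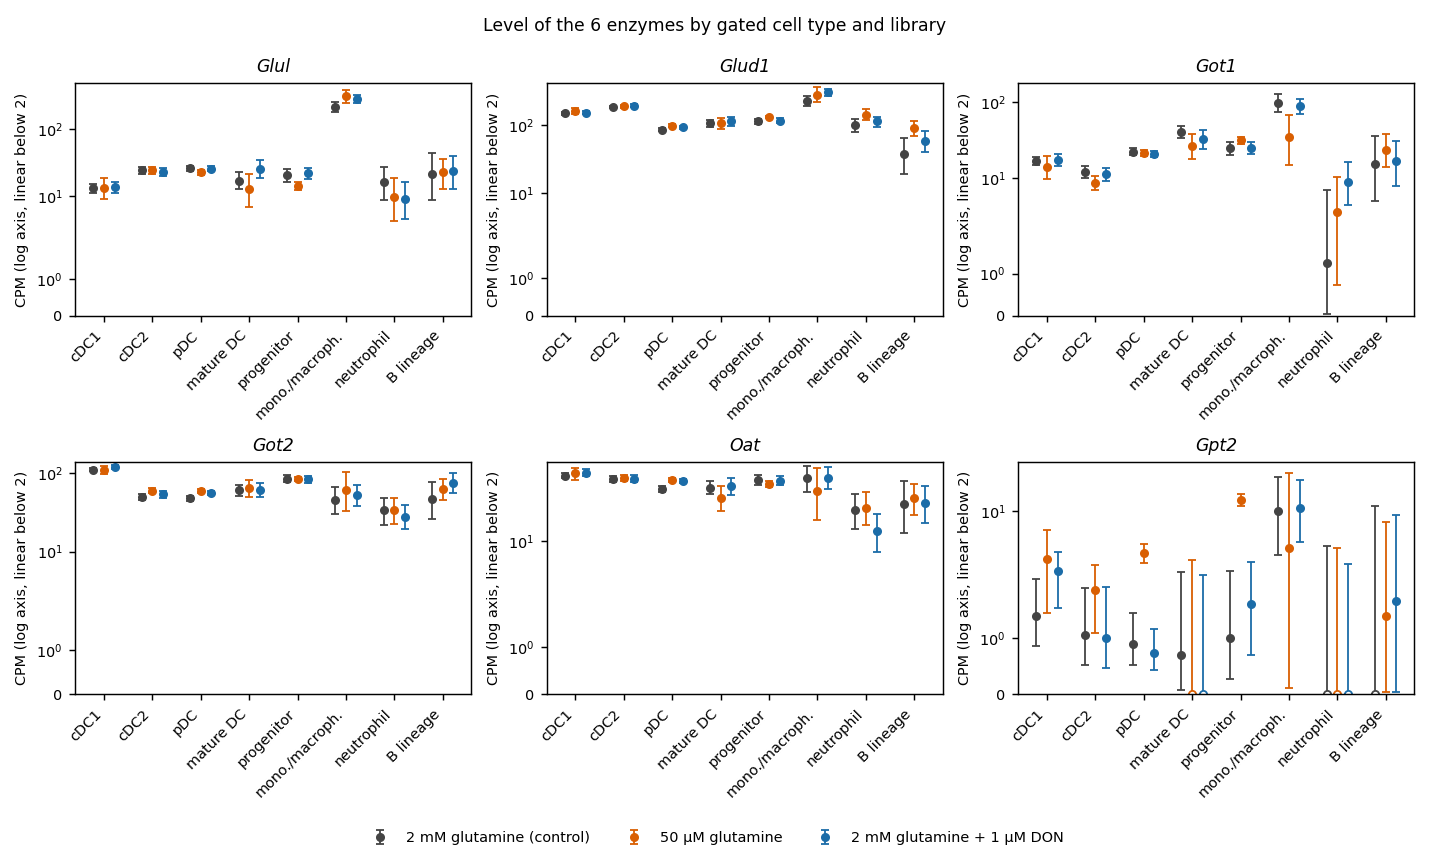
Level of each enzyme in 8 gated cell types, in CPM on an axis that is logarithmic above 2 and linear below. Points are single libraries (1 per group), bars are 95% Poisson intervals and open points mark 0 UMIs. Glul stands at 217 to 317 CPM in monocytes and macrophages and at 12.9 to 13.5 CPM in cDC1, and Gpt2 at 50 µM stands at 13.02 CPM in the progenitor gate.

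Glud1, which opens glutamate to the citric acid cycle, was measured in every gate and followed an order that differed from that of Glul. It was highest in monocytes and macrophages, at 226, 282 and 304 CPM, although in control that interval overlapped the next. In cDC2 it was at 186 CPM (177 to 194), 190 CPM (181 to 198) and 193 CPM (184 to 203), and in cDC1 at 149 CPM (143 to 156), 163 CPM (147 to 180) and 152 CPM (144 to 161). The cDC2 values were above the cDC1 values in each library with no overlap of intervals. In pDC it was lower, at 85.0, 98.6 and 92.5 CPM, and in progenitors at 114, 132 and 117 CPM. B lineage cells had the lowest values, 36.9, 89.8 and 58.4 CPM, from 12, 64 and 35 UMIs.

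The aspartate transaminases did not share an order. Got2, the mitochondrial form, was highest in cDC1, at 110 CPM (105 to 116), 108 CPM (95.6 to 122) and 118 CPM (111 to 126). Progenitors followed at 84.5, 83.4 and 83.1 CPM, and in all 3 libraries their intervals lay below those of cDC1. In cDC2 Got2 was at 49.5, 59.7 and 53.2 CPM, in pDC at 47.4, 58.4 and 55.3 CPM, and neutrophils had the lowest level, 33.5, 33.3 and 27.9 CPM. The cytosolic form, Got1, was highest in monocytes and macrophages in control and with DON, at 99.4 and 89.2 CPM, where the 50 µM value was 34.7 CPM from 8 UMIs (15.0 to 68.4). Mature dendritic cells, which carry Ccr7, had 41.2, 26.9 and 32.8 CPM, and cDC1 had 16.7, 14.2 and 17.5 CPM. In cDC2 it was at 12.3, 8.65 and 11.2 CPM, so that cDC1 and cDC2 intervals overlapped at 50 µM but were apart in control and with DON.

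Oat, over cDC1, cDC2, progenitors and pDC, had a narrower range than most genes. It was at 59.9, 63.6 and 65.1 CPM in cDC1, 55.3, 56.2 and 55.3 CPM in cDC2, 52.7, 48.0 and 52.2 CPM in progenitors and 41.8, 53.8 and 51.7 CPM in pDC. Mature dendritic cells were lower than cDC1 beyond counting error in all 3 libraries, at 43.3 CPM (36.0 to 51.6), 32.3 CPM (22.6 to 44.7) and 45.01 CPM (35.1 to 56.9). Neutrophils were the lowest gate, at 23.5, 25.0 and 13.1 CPM. Over the cDC1, cDC2, pDC and progenitor gates the highest Oat level was 1.39 times the lowest in control, after adding 5 CPM to each, and 75.6% of 6648 genes of at least 20 CPM in some gate had a wider range; at 50 µM and with DON the Oat range was 1.30 and 1.24 times.

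The comparison of 50 µM glutamine with control asked whether enzyme levels differed within a cell type. A ratio was called apart at 1.5-fold or more, on log2 of treated over control with 5 CPM added to both. In cDC1, 0 of 6 members were apart at 50 µM and 3.36% of all genes of at least 20 CPM were, and in cDC2 the count was 0 of 6 beside 6.4%. In the pDC gate 1 of 6 was apart beside 12.5% of genes, and in the progenitor gate 1 of 6 beside 3.42%; in both it was Gpt2, which is below the level at which the genes were counted. Against DON, where the same control library was used, 0 of 6 members were apart in each of the 4 gates, beside 1.21% of genes in cDC1, 0.617% in cDC2, 3.3% in pDC and 0.502% in progenitors. Of the 6 members, 3 passed 20 CPM in cDC1, 4 in cDC2, 5 in pDC and 5 in progenitors, in either comparison.

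The other 4 gates were compared in the same way. At 50 µM 2 of 6 members were apart in monocytes and macrophages beside 30.4% of genes, 1 of 6 in B lineage cells beside 27.4%, and 0 of 6 in mature dendritic cells and neutrophils beside 11.7% and 22.5%. Got1 in monocytes and macrophages was at 99.4 CPM in control and 34.7 CPM at 50 µM, from 59 and 8 UMIs, a ratio of 0.349 (0.144 to 0.734). The second member there was Gpt2, from 6 and 1 UMIs, which was below the 20 CPM at which genes were counted. Glud1 in B lineage cells was at 36.9 and 89.8 CPM, from 12 and 64 UMIs, a ratio of 2.43 (1.30 to 4.95). That gate also held pDC markers, at 2924 CPM in control and 2338 CPM at 50 µM, whose part in the ratio was not tested. With DON 3 of 6 members were apart in neutrophils beside 12.6% of genes, 2 of 6 in B lineage cells beside 26.1%, and 0 of 6 in monocytes and macrophages and in mature dendritic cells beside 14.6% and 3.7%. Of the 5 DON calls, Got1 in neutrophils, from 1 and 11 UMIs, had an interval without 1. In neutrophils Glul and Got1 were below the 20 CPM at which genes were counted, and Oat was not. Of genes of at least 5 CPM in that gate, 18.6% were apart with DON. Ratios in these 4 gates were not recomputed under other settings.

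**Figure D2:**
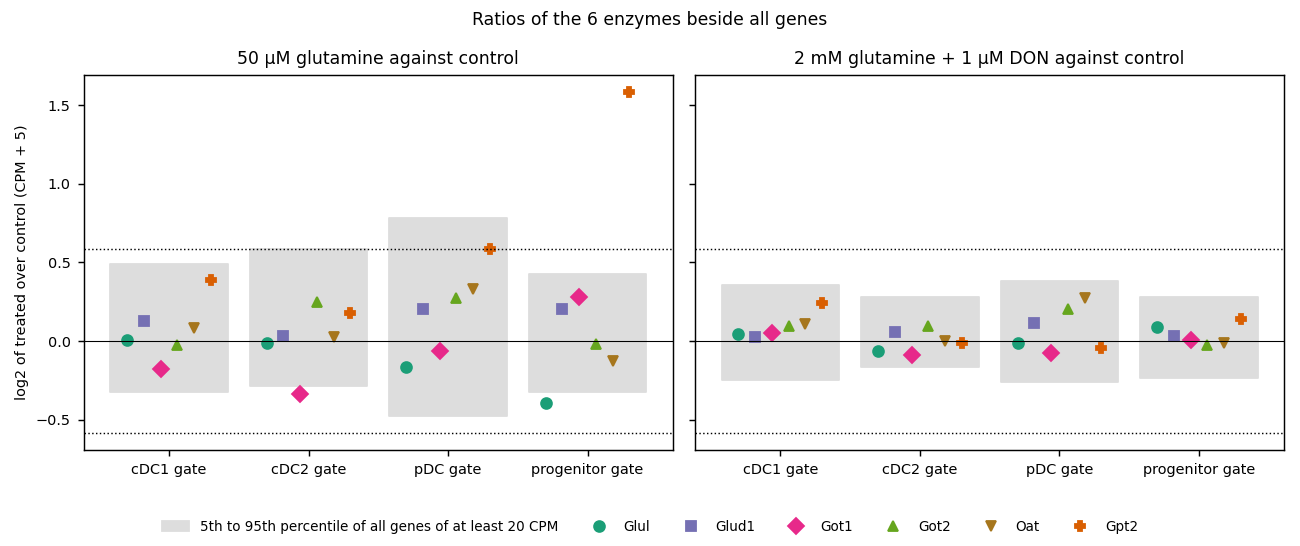
Log2 ratio of the 6 enzymes in 4 gates for each treatment against the control library, with 5 CPM added to both levels. Grey boxes span the 5th to 95th percentile of all genes of at least 20 CPM, and dotted lines mark 1.5-fold; Gpt2 at 50 µM stands at 1.59 in progenitors and 0.59 in pDC, and all other points lie inside the dotted lines.

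Leaving out Gpt2, the 5 other members had plain ratios of 0.702 to 1.29 at 50 µM and 0.915 to 1.24 with DON over the cDC1, cDC2, pDC and progenitor gates. The lowest was Glul in progenitors at 50 µM, at 20.2 and 14.2 CPM (ratio 0.702, interval 0.540 to 0.920). The highest was Oat in pDC at 50 µM, 1.29 (1.18 to 1.41), beside 1.24 (1.13 to 1.35) with DON. Got1 in cDC2 was at 0.706 (0.529 to 0.937) at 50 µM, and Got2 there at 1.21 (1.07 to 1.36). Of the 48 ratios, with Gpt2 included, 14 had an interval without 1, 11 at 50 µM and 3 with DON. The DON ones were Glud1, Got2 and Oat in pDC. All genes were not counted by this measure, so the 14 cannot be set against a share of genes. All genes had a median log2 ratio of 0.14 in cDC2 and 0.13 in pDC at 50 µM, and scaling by median of ratios takes this shift away. The log2 ratio of Got2 in cDC2 was then 0.11 in place of 0.25, that of Glud1 in pDC 0.06 in place of 0.20, and that of Glud1 in cDC2 turned from 0.03 to -0.12.

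Among the cDC1, cDC2, pDC and progenitor gates, Gpt2, the mitochondrial alanine transaminase, was the only member past 1.5-fold. It passed at 50 µM in pDC and progenitors, and not in cDC1 or cDC2. In the progenitor gate it was at 1.00 CPM in control (0.272 to 2.56, 4 UMIs), 13.02 CPM at 50 µM (11.2 to 15.0, 185 UMIs) and 1.61 CPM with DON (0.693 to 3.16, 8 UMIs). Only the 50 µM library was high. The ratio of 50 µM to control was 13.02 with a counting interval of 4.999 to 48.3, wide because control gave 4 UMIs, and the log2 ratio was 1.59. In pDC Gpt2 was at 0.901 CPM (17 UMIs), 3.86 CPM (84 UMIs) and 0.732 CPM (18 UMIs), a ratio of 4.29 (2.52 to 7.70) and a log2 ratio of 0.59, which is at the line for a call. In cDC1 the values were 1.39, 3.35 and 2.56 CPM, from 21, 8 and 19 UMIs, and the 50 µM ratio of 2.41 had an interval of 0.924 to 5.67 that includes 1. In cDC2 they were 1.05, 1.85 and 1.01 CPM. Neutrophils gave 0 UMIs in all 3 libraries. In monocytes and macrophages the values were 10.1, 4.34 and 10.8 CPM, from 6, 1 and 9 UMIs. Whether the ratio at 50 µM differs between cDC1, cDC2, pDC and progenitors could not be tested.

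The Gpt2 values were then set beside what else differed in those gates. Progenitor gates were not alike in their other markers: the neutrophil panel summed to 1882 CPM in control, 925 at 50 µM and 3482 with DON, and the pDC panel to 208, 761 and 189 CPM, and the part of this mix in the Gpt2 ratio was not tested. The share of gated progenitors that clustering also placed in a progenitor cluster was 65.3%, 89.2% and 71.1%. Cells that met both the gate and the cluster gave a log2 ratio of 1.81. At 50 µM, Gpt2 was at 13.7, 11.9 and 13.9 CPM in progenitors with 0, 1 to 9, and 10 or more UMIs of Mpo, the myeloperoxidase gene, and in control at 1.91, 0 and 0 CPM from 4, 0 and 0 UMIs. The level at 50 µM was thus similar over the range of Mpo. In pDC it moved with progenitor markers: at 50 µM Gpt2 was at 1.53, 3.13, 5.15 and 6.00 CPM in cells with 0, 1, 2 and 3 of the 10 progenitor markers, from 7, 24, 37 and 12 UMIs. Those cells also differed in division and depth, with 17.4%, 41.1%, 70.7% and 81.4% called cycling and medians of 5002, 6008, 8812 and 10688 UMIs. The part of each in the Gpt2 level was not tested. The same subsets were at 0.668, 1.25, 0.687 and 2.09 CPM in control, from 6, 8, 2 and 1 UMIs, and at 0.672, 0.743, 0.831 and 0.730 CPM with DON, from 6, 6, 5 and 1 UMIs. At these counts no order could be read in either library. The progenitor panel in the pDC gate summed to 158, 314 and 198 CPM. Cells of the pDC gate called cycling, by at least 3 of 10 division genes with a UMI, had 2.00 CPM in control and 5.78 CPM at 50 µM, while other cells of that gate had 0.557 and 1.03 CPM; the DON values were 0.744 and 0.722 CPM. Leaving out the cycling cells brought the pDC log2 ratio to 0.12, below the call. That value has 5 CPM added to levels of 0.557 and 1.03 CPM, whose intervals overlapped. With the cycling call made on thinned cells, the other pDC of the control library had Gpt2 at 0.516 CPM (0.223 to 1.02, 8 UMIs). Those of the 50 µM library then had 1.89 CPM (1.17 to 2.89, 21 UMIs), and these intervals were apart.

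**Figure D3:**
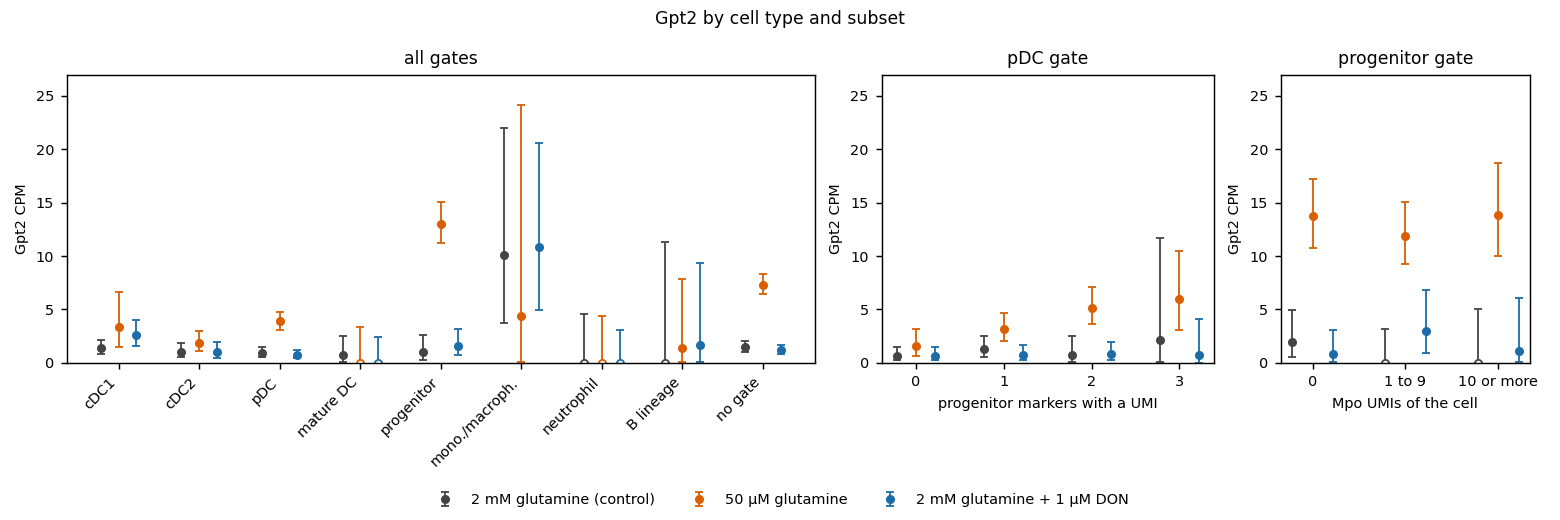
Gpt2 in CPM by gate (left, with cells in no gate), in pDC by how many progenitor markers a cell had (centre) and in progenitors by Mpo UMIs (right), 1 library per group, with 95% Poisson intervals and open points for 0 UMIs. At 50 µM the progenitor subsets lie at 11.9 to 13.9 CPM, and the pDC subsets run from 1.53 CPM to 6.00 CPM.

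Oat differed between dividing and other cells in the dendritic cell gates. In the pDC gate it was at 71.0, 68.5 and 74.8 CPM in cells called cycling and at 32.6, 32.1 and 33.7 CPM in other cells. In cDC2 it was at 85.2, 72.0 and 79.8 CPM in cycling cells and 46.9, 48.2 and 45.9 CPM in others, and in cDC1 at 73.9, 70.9 and 74.1 CPM against 48.9, 57.0 and 52.1 CPM. Over these 3 gates and 3 libraries the cycling value was higher in 9 of 9 pairs, with intervals apart in 8 of 9, the exception being cDC1 at 50 µM. The share of all genes that differ in this way was not computed, so the counts describe Oat without a comparison to other genes. The share of pDC called cycling was 15.6% in control, 44.7% at 50 µM and 29.9% with DON, and over the whole gate 50 µM was 1.29 times control. Within cycling cells and within other cells the intervals of the 3 libraries overlapped. Cycling cells were deeper, with medians of 9032, 9373 and 11076.5 UMIs against 5262, 5042 and 6143 in the pDC gate, and CPM corrects for the total but not for which cells could be called cycling. With the call made on cells thinned to 2000 UMIs the order in pDC, cDC2 and cDC1 was the same, but in other pDC Oat was then at 34.1 CPM in control (31.3 to 37.2), 40.2 CPM at 50 µM (36.5 to 44.1) and 40.6 CPM with DON (37.6 to 43.8), so that control and DON were apart. The part of the cycling share in the ratio of the whole gate was not tested. In progenitors 88.1% to 93.0% of cells were called cycling. In control Oat was at 51.2 CPM in the cycling ones (44.2 to 59.0) and at 74.2 CPM in other cells (45.3 to 115). The latter value came from 28 cells and 20 UMIs, and the intervals overlapped. At 50 µM the values were 48.0 and 47.2 CPM.

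Glul went the other way in pDC and cDC2. In the pDC gate it was at 15.1, 18.7 and 19.6 CPM in cycling cells and 29.2, 28.3 and 30.3 CPM in others, and in cDC2 at 16.7, 19.7 and 16.6 CPM against 26.5, 26.3 and 25.6 CPM. Intervals were apart in 4 of 9 pairs, the 3 of pDC and cDC2 in control. In cDC1 the 2 groups of cells had similar levels, 13.5, 12.2 and 11.8 CPM against 12.4, 13.7 and 15.8 CPM. Got1 and Got2 were each higher in cycling cells in 8 of 9 pairs, with intervals apart in 1 and 3 of them, and Glud1 in 3 of 9. As for Oat, the same counts were not made over all genes.

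**Figure D4:**
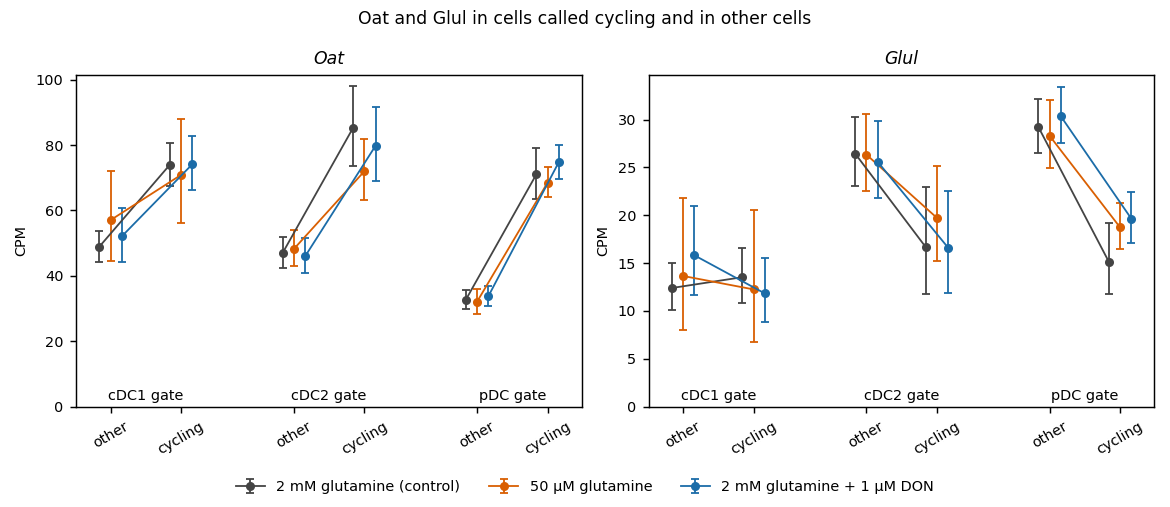
Oat and Glul in CPM in cells called cycling and in other cells of the cDC1, cDC2 and pDC gates, 1 point per library with 95% Poisson intervals. Oat is higher in the cycling cells in 9 of 9 pairs and Glul is lower in cDC2 and pDC in all 3 libraries.

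The other genes of glutamine and glutamate use, from 6 lists, show how the members compare with their pathway; a list gene was counted when it reached 5 CPM in either library. At 50 µM in progenitors 1 of 6 members was higher, beside 1 of 9 glutaminase and amidotransferase genes, 5 of 11 other glutamate enzymes and 5 of 8 transporters, while the malate-aspartate shuttle (0 of 6), the citric acid cycle (0 of 17) and ornithine and polyamine genes (0 of 5) had none apart. Of all genes of at least 5 CPM there, 3.68% were apart. In the same gate the medians were 0.09 for the members, 0.91 for transporters and 0.06 for all 9113 genes of at least 5 CPM. In cDC1 the counts were 1 of 9 amidotransferase genes (Asns, 3.44 and 17.6 CPM, log2 ratio 1.42), 1 of 6 transporters (Slc7a5, the large neutral amino acid transporter, 9.25 and 25.1 CPM) and 0 of 9 other glutamate enzymes, beside 4.18% of genes. In pDC 4 of 9 amidotransferase genes were higher, among them Asns (1.70 and 27.5 CPM) and Ctps, the CTP synthetase (8.11 and 15.6 CPM), with 3 of 8 other glutamate enzymes and 2 of 6 transporters, beside 11.4% of genes. In cDC2 Asns (2.39 and 14.4 CPM), Slc7a5 (10.1 and 18.2 CPM), Slc7a11 (a cystine and glutamate exchanger, 1.34 and 5.56 CPM) and the aspartate carrier Slc25a12 (23.9 and 41.8 CPM) were apart, beside 6.69% of genes. With DON the only list gene past 1.5-fold in the cDC1, cDC2, pDC and progenitor gates was Slc7a5 in cDC1, at 19.9 CPM; no list gene was lower in any of them. The share of genes apart with DON was 1.53% in cDC1, 0.698% in cDC2, 2.65% in pDC and 0.744% in progenitors.

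**Figure D5:**
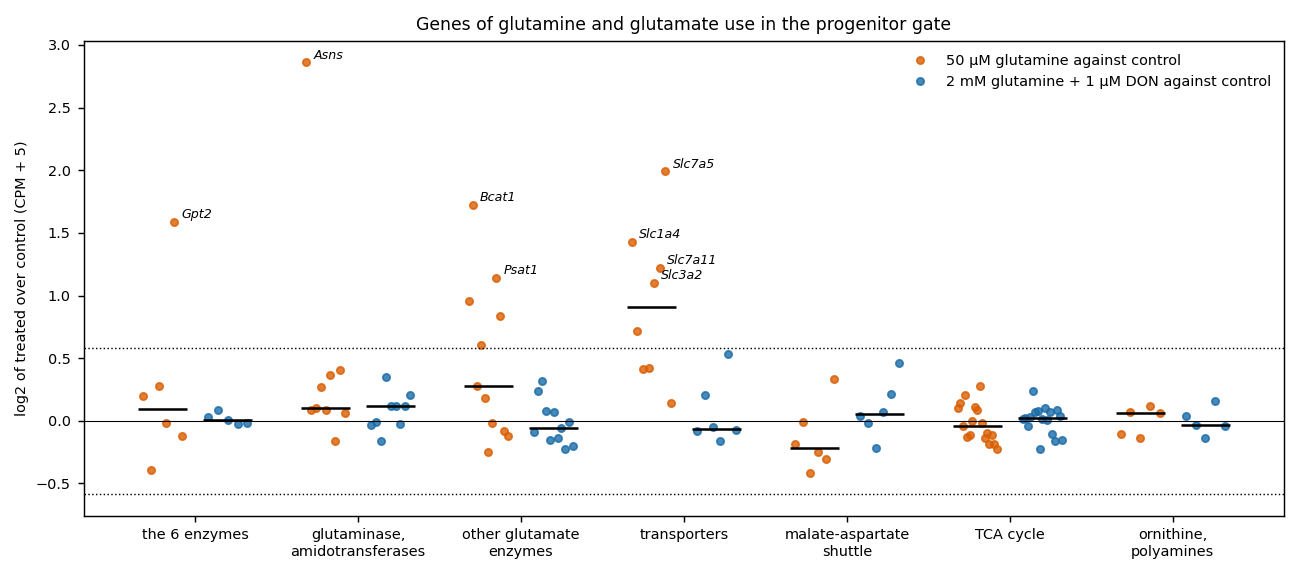
Log2 ratio in the progenitor gate of each list gene of at least 5 CPM, for 50 µM glutamine and for DON against control (5 CPM added), with list medians as bars. Gpt2, at 1.59, lies with Asns (2.86), Bcat1, Slc7a5, Slc1a4 and others above the upper dotted line of 1.5-fold, and the DON values of all list genes lie inside the dotted lines.

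Asns in progenitors was at 16.7 CPM in control (12.98 to 21.3), 153 CPM at 50 µM (147 to 160) and 16.3 CPM with DON (12.9 to 20.2), a pattern like that of Gpt2. Bcat1, the cytosolic branched-chain transaminase, was at 1.00 and 14.8 CPM there and Psat1, the phosphoserine transaminase that uses glutamate, at 52.2 and 121 CPM (ratio 2.32, 2.01 to 2.69). Genes named for progenitors and pDC were chosen after their values were seen. Across 8 gates and 3 libraries (24 points sharing libraries, depth and gates, so that r is a description), the genes most like Glul were Slc39a1, Mrc1 and Npy (r of 0.97, 0.96 and 0.96), and like Got2 Nap1l1, Atp5md and Hspa8 (0.89, 0.86 and 0.85). Those most like Glud1 were Ppp1r21, Hnrnpll and Snx10 (0.94, 0.90 and 0.90), like Oat Abi2, Pomp and Khdrbs1 (0.89, 0.88 and 0.88), like Got1 Gkap1, Cul2 and Phf20 (0.91, 0.89 and 0.89), and like Gpt2 Ppm1f, Pdp1 and Naa50 (0.82, 0.82 and 0.81). For Glul, Glud1, Got1 and Gpt2 the highest of these genes' levels lay in the monocyte and macrophage gate, which has few UMIs.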

How the data were processed

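Cells of the 3 cultures were measured by droplet 3' single-cell RNA sequencing. The authors deposited raw UMI counts per gene and barcode, already called as cells. Cell Ranger appears as 6.0.0 per the file headers and as 3.1.0, with mm10, per the submitters' processing notes, so its version is unsettled. Of the counted genes, 99.6% have an identifier in GENCODE vM21. Barcodes with under 1000 UMIs, under 500 genes or over 10% mitochondrial UMIs were left out, and doublets were removed with Scrublet in scanpy 1.11.5 (expected rate 0.08), which left 9473, 9169 and 8367 cells with a median of 6642, 7610 and 7910 UMIs. UMIs were summed per gate and library and scaled to CPM. Ratios carry 5 CPM on each side, and genes in the background reach 20 CPM in a library. Shares were taken after thinning to 2000 UMIs. Ratio intervals are exact conditional binomial. Functions were tested on simulated data. The members and lists were chosen with earlier results of these data known. Named genes are the members, per member the 3 genes of highest r, and up to 4 list genes apart per list in cDC1 and cDC2. Analyses used Python 3.11.15, numpy 2.4.6, scipy 1.17.1 and pandas 2.3.3. Alternatives to gates, clustering (Leiden at resolution 1.0), doublets, filters, scaling, pseudocount and fold are in the closing section.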

Additional observations from a re-analysis of the deposited data

Results flagged for a closer look

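Ratios of Glul at 50 µM glutamine to control lay on both sides of 1 in different gates, at 0.873 in pDC, 0.702 in progenitors and 1.46 in monocytes and macrophages, each with a counting interval without 1. Monocytes and macrophages not called cycling held 104 of the 129 control Glul UMIs, but 38 of the 73 at 50 µM, from 46 cells. In the same order, Glul in these cells stood at 215 (175 to 260) and 227 CPM (161 to 312), with overlapping intervals. The part of cycling cells in the ratio of 1.46 was not tested. Got1 ratios also lay on both sides of 1, each with a counting interval without 1. They were 0.706 in cDC2, 0.653 in mature dendritic cells, 1.26 in progenitors and 0.349 in monocytes and macrophages (59 UMIs in control and 8 at 50 µM). The progenitor ratio had an interval of 1.01 to 1.58. Its log2 value of 0.28 became -0.19 when the gate was set on cells thinned to 2000 UMIs. Whether the Glul and Got1 ratios differ between gates was not tested, since each group has 1 library.

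Cells in no gate, which the plot of Gpt2 by gate shows but no count of members apart includes, had Gpt2 at 7.31 CPM at 50 µM (6.40 to 8.31), against 1.45 CPM in control and 1.17 CPM with DON.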

How the results depend on the processing

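No paired analysis was possible because each group has 1 library. Under 15 alternatives (gates, clusters, doublets, depth, scaling, summing, pseudocount and cycling cells), the 46 ratios not past 1.5-fold gave 690 values, of which 9 passed it and 39 left the counting interval. The cycling-cells-only and gate-with-cluster settings and the thinned cycling call were chosen after seeing the data.

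The Gpt2 call in progenitors held under every alternative, with log2 ratios of 0.65 (pseudocount 20) to 2.81 (pseudocount 1). Its call in pDC did not: the ratio of 0.59 became 0.12 (0.1172) with cycling cells left out, 0.19 at pseudocount 20 and 1.36 at pseudocount 1. Of members apart in pDC at 50 µM, the count of 1 became 0 with gates of 4 markers, thinned cells, 70% of panel UMIs, clusters, gate and cluster together, doublets kept, median-of-ratios scaling, means over cells, cycling cells left out, pseudocount 20 and a 2-fold limit. In cDC1 at 50 µM the count of 0 became 1 (Gpt2) with gates of 4 markers, thinned cells, 70% of panel UMIs, cycling cells left out and pseudocount 1, and in cDC2 it became 1 (Got1) in cycling cells only. In progenitors it became 2 (Oat and Gpt2) at 50 µM and, with DON, 1 (Oat) with cycling cells left out, and 1 (Gpt2) with DON at 70% of panel UMIs. With cycling cells left out, the control progenitor gate held 28 cells and 20 Oat UMIs. With DON fewer remained, as 225 of the 242 progenitors were called cycling and held 253 of the 260 Oat UMIs. The cause of these moves was not tested.

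Depth limits Gpt2 most: at 50 µM progenitors gave 185 and pDC 84 UMIs, but in control and with DON they gave 4 and 8, and 17 and 18, and the other gates gave at most 21 in any library.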

Other observations

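Over all cells of a library Gpt2 was at 1.23 CPM in control, 6.38 CPM at 50 µM glutamine and 1.23 CPM with DON. Of its 531 UMIs at 50 µM, 34.8% came from the progenitor gate, which held 17.1% of that library's UMIs, 44.1% from cells in no gate, which held 38.5%, and 15.8% from pDC, which held 26.1%. The 5 other members had library-wide ratios near 1 at 50 µM, the lowest being Glul at 0.895 (0.836 to 0.957). With DON, Glul was at 1.12 (1.05 to 1.198) over all cells. Monocytes and macrophages, its highest gate, were 2.23% of cells there and 1.63% in control. Within that gate the Glul ratio of DON to control was 1.32 (1.07 to 1.65). The part of each in the ratio over all cells was not tested.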
